A study of Homo sapiens with 2 samples.

Results

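Growing axons are built and steered by a shared set of proteins, and 36 genes for such proteins are described here in SK-N-BE(2)-C, an established human neuroblastoma cell line. The genes were chosen by symbol, as growth cone, cytoskeletal, adhesion, transport and guidance genes named by earlier work on these data, and all 36 had a row of their own among the 36027 genes of the count table. 1 library came from a culture given doxycycline at 100 ng/ml for 13 days (HRASV12 induced) and 1 from an untreated culture (uninduced control). Both cultures carried the SK-N-BE(2)-C-pIND-HRASV12 construct, which encodes the mutant, constantly active GTPase HRASV12 under doxycycline control. Doxycycline went to the induced culture and not to the control culture, so effects of the drug and of HRASV12 cannot be told apart. The sources used here do not say whether the line is 1 clone.

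The growth cone at the tip of an axon extends by adding membrane and microtubules, and turns when receptors for semaphorins, Slits and netrins bind their ligands. Neuroblastoma arises from sympathetic precursors of the neural crest and keeps many of these neuronal genes active. Transcripts were counted by single-cell RNA sequencing from the 3' end (10x Genomics Chromium), so a level is a count of transcript ends and is compared here between libraries, not between genes.

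The induced library held 666 cells with a median of 111582 counts, and the control library 956 cells with a median of 85821 counts. The libraries shared 0 cell barcodes. HRAS itself stood at 161 CPM (counts scaled to a library total of 1000000) with induction, against 109 CPM in the control, which does not separate transgene from native transcripts. Of 16 adrenergic neuroblastoma markers, 13 reached 10 CPM in either library. Those under it included TH (92 induced and 345 control counts) and INSM1 (78 induced and 471 control counts). The adrenergic list summed to 4003 CPM with induction, against 4752 CPM in the control. The 13 had a median log2 ratio of induced over control of -0.24. Of 12 endothelial markers 3 reached 10 CPM, and of the Schwann cell precursor and immune markers 0 did. Of 8 fibroblast markers 3 reached it, LUM and THY1 higher and PDGFRB lower in the induced library, and the list summed to 331 CPM with induction, against 167 CPM in the control. With 1 library per group no test between groups was possible, and every interval below is a 95% interval. For levels and ratios it covers counting error only. For shares of cells it treats the cells of a library as independent draws, although they share 1 culture. Neither kind covers variation between cultures. The libraries also differed in other ways, whose part in the results was not tested. Summed S and G2/M phase genes had a median of 3377 CPM per induced cell and 9132 CPM per control cell. The nuclear RNA MALAT1 was near level in the library totals, at 3352 CPM with induction, against 3395 CPM in the control. Its spread over cells was wider with induction. The 25th percentile of MALAT1 was 358 CPM in induced and 1208 CPM in control cells. The 75th percentile was 5689 CPM in induced and 5208 CPM in control cells.

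More of the axon growth genes were higher than lower in the induced library, while the 2 semaphorin genes and the Slit receptor gene ROBO1 were lower. Of the 36 genes, 33 had at least 10 CPM in either library, and RTN1, ROBO2 and DCC did not. Among those 33, 11 were at least 1.5-fold higher in the induced library and 3 at least 1.5-fold lower, on a log2 scale with 1 CPM added. By the same rule 9017 genes of the table reached 10 CPM, of which 10.3% were higher by that size and 7.73% lower. The median log2 ratio of induced over control was 0.40 for the 33 genes and -0.04 for the 9017. NRP2 and SEMA3A passed the 10 CPM floor through 1 library alone, a filter that favours a difference. With the floor required in both libraries, 10 of 31 were higher and 2 lower, beside 8.03% and 6.33% of 7998 genes. With at least 1 count in either library, 11 of 36 were higher and 3 lower, beside 4.7% and 3.14% of 35957 genes. Summed over all 36, the genes made up 7956 CPM with induction, against 5348 CPM in the control (1.49-fold, 1.48 to 1.49).

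**Figure D1:**
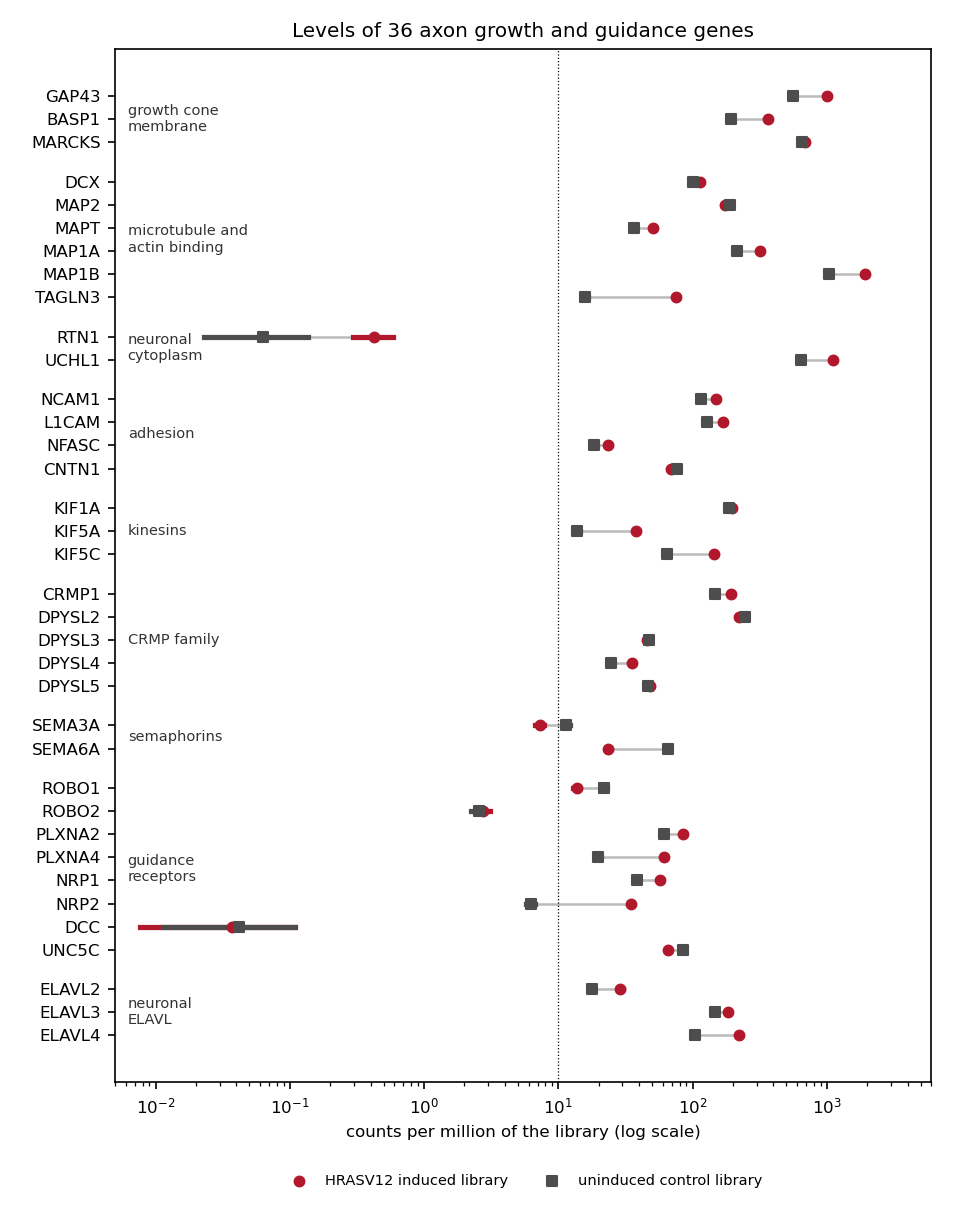
Levels of the 36 genes in CPM (horizontal log axis), grouped by role, with circles for the HRASV12 induced and squares for the uninduced control library; thick bars are 95% counting intervals and the dotted line marks 10 CPM. Of the 33 genes that reached 10 CPM, NRP2, TAGLN3, PLXNA4 and KIF5A have the widest gaps with the induced library higher, SEMA6A has the widest with it lower, and RTN1, ROBO2 and DCC lie left of the dotted line.

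Of the 11 genes called higher, 10 stayed past 1.5-fold under every alternative of processing in which they passed the floor, and ELAVL2 fell just short with a pseudocount of 5 CPM (log2 ratio 0.58). Of the 3 called lower, SEMA6A stayed past 1.5-fold under each alternative. ROBO1 did not in 8 and SEMA3A did not in 10 of the alternatives. Scaling shifted the picture for all genes together: of all genes past 1.5-fold, the share on the higher side was 57.2% by library totals, 73.9% with TMM factors, 79.9% with DESeq2 size factors and 40.5% when genes for ribosomal proteins and mitochondrial genes were taken out of the totals. With TMM factors 14 of the 33 genes were higher and 1 lower, beside 14.3% and 5.04% of all genes. With DESeq2 size factors 16 were higher and 1 lower, beside 16.3% and 4.12%, and the median of all genes was 0.13. The quality limit dropped cells under the control 5th percentile of mitochondrial percent or of MALAT1 from both libraries. It kept 406 of 666 induced cells, against 871 of 956 control cells, so it removed more of the induced library. Over all cells, the 5th percentile of the mitochondrial share of counts stood at 1.44% with induction, against 8.52% without. Under the quality limit 15 of the 33 genes were higher and 1 lower, beside 9.19% and 4.32% of all genes. Without ribosomal protein and mitochondrial genes in the totals, 11 were higher and 3 lower, beside 8.36% and 12.3%, and the median of all genes was -0.14.

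**Figure D2:**
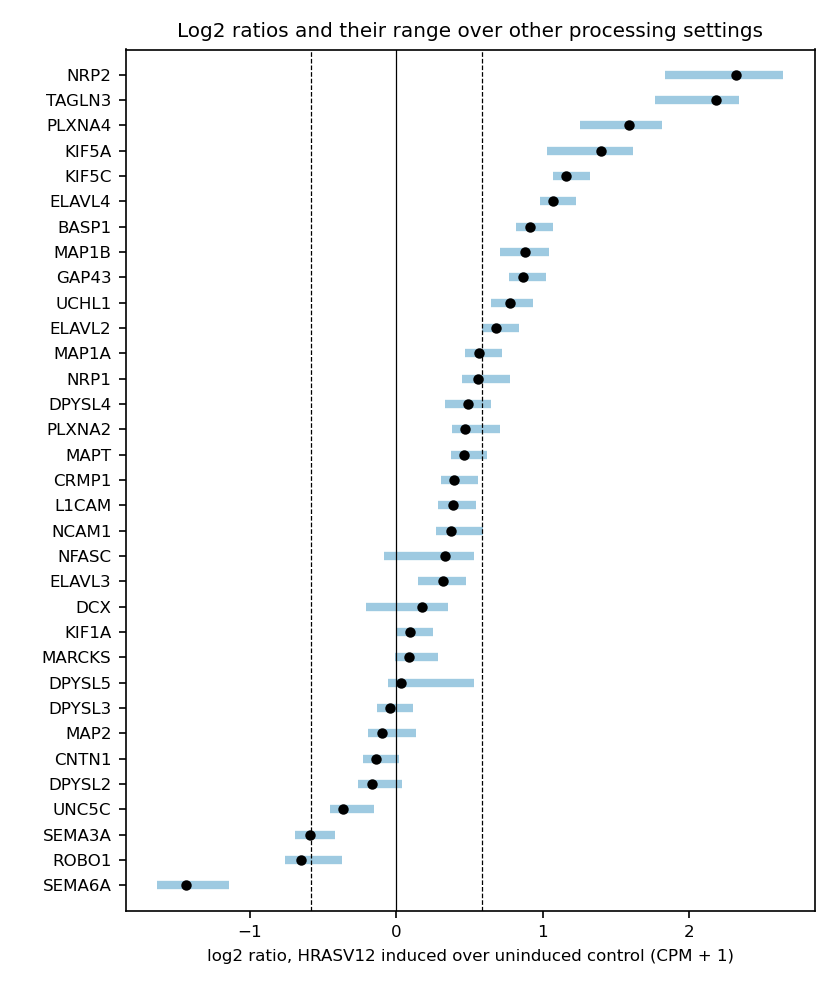
Log2 ratio of induced over control for the 33 genes that reached 10 CPM (points, horizontal axis), with bars from the lowest to the highest value over the other processing settings; dashed lines mark 1.5-fold and the solid line equal levels. NRP2 and TAGLN3 head the order at 2.32 and 2.18, SEMA6A closes it at -1.43, and the bars of MARCKS, DCX, NFASC, MAP2, CNTN1, DPYSL2, DPYSL3 and DPYSL5 cross 0.

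Among proteins of the growth cone membrane, GAP43 and BASP1 were higher in the induced library and MARCKS was near level. GAP43, a phosphoprotein of the inner face of growth cones, stood at 1012 CPM with induction, against 556 CPM in the control (1.82-fold, 1.80 to 1.84). BASP1, a related acylated membrane protein, stood at 363 CPM with induction, against 193 CPM in the control (1.88-fold, 1.85 to 1.92). MARCKS, which links the membrane to actin, stood at 695 CPM induced against 654 CPM control. The MARCKS log2 ratio was 0.09, and -0.01 when ribosomal protein and mitochondrial genes were taken out of the totals. To compare cells at equal depth, cells were thinned by random draws to 53000 counts apiece, which kept 562 induced and 766 control cells and left out 104 induced and 190 control cells. The median thinned cell had 50 GAP43 counts with induction, against 27 in the control. In the induced library 42.7% of cells lay above the control 95th percentile of GAP43, and the 5th percentile was 12 counts in induced and 10 in control cells. The upper end of GAP43 had moved further than the lower end, and the libraries overlapped. BASP1 had a median of 18 counts in induced and 8 in control cells, and was found in 99.6% of induced and 93.7% of control cells. Its antisense gene BASP1-AS1 had 588 induced and 1065 control counts.

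Among cytoskeletal proteins, TAGLN3 and MAP1B were higher in the induced library, while DCX and MAP2 were near level. TAGLN3, the neuronal member of the transgelin family of actin-binding proteins, stood at 75.7 CPM with induction, against 15.9 CPM in the control (4.77-fold, 4.51 to 5.05). TAGLN3 was detected at equal depth in 78.1% of induced cells (74.5 to 81.5, Clopper-Pearson), against 48.0% of control cells (44.5 to 51.7), and without thinning in 83.6% of induced and 58.6% of control cells. The series holds 1 cell line, so no cell type that lacks these genes gives a background share. Inside the induced library TAGLN3 was lower in cells rich in MALAT1, with a Spearman correlation of -0.34 over 562 cells that share 1 library and 1 depth. Its log2 ratio of 2.18 was 1.77 under the quality limit.

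MAP1B, a microtubule-associated protein of extending axons, stood at 1929.9 CPM with induction, against 1048 CPM in the control (1.84-fold, 1.83 to 1.86). Its median thinned cell had 98 counts with induction, against 52 in the control, and 52.3% of induced cells lay above the control 95th percentile. MAP1A, its relative in mature neurites, stood at 316 CPM induced against 214 CPM control, a log2 ratio of 0.56 just under the 1.5-fold line, which it passed in 7 alternatives. MAPT, the axonal protein tau, stood at 50.3 CPM induced against 36.4 CPM control, a log2 ratio of 0.46 that passed the line in 1 alternative. DCX, doublecortin, a microtubule protein of migrating neurons, stood at 114.5 CPM induced against 101 CPM control and MAP2, which marks dendrites, at 176 CPM induced against 189 CPM control. The DCX log2 ratio of 0.17 turned to -0.21 among cells low in phase genes (at or below the control 25th percentile of summed S and G2/M phase genes, 433 induced and 239 control cells), and that of MAP2, -0.10, to 0.14 under the quality limit. UCHL1, a ubiquitin hydrolase abundant in neurons, stood at 1104 CPM induced against 644 CPM control, a ratio of 1.71 (1.70 to 1.73), and its median thinned cell had 51 counts with induction, against 34 in the control. RTN1, a reticulon of the endoplasmic reticulum of neurons, had 34 induced and 6 control counts, a ratio of 6.72 (2.79 to 19.6) that rests on few molecules.

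The adhesion molecules differed little. NCAM1 stood at 150.3 CPM with induction, against 116 CPM in the control, L1CAM at 168 CPM induced against 128 CPM control, NFASC at 23.5 CPM induced against 18.4 CPM control and CNTN1 at 69.0 CPM induced against 76.0 CPM control. None of these 4 immunoglobulin superfamily proteins passed 1.5-fold by library totals. NCAM1 did so under the quality limit (0.59), and NFASC turned from a log2 ratio of 0.34 to -0.08 among cells low in phase genes. Of 22 further neural adhesion genes, 9 reached the floor, 4 were at least 1.5-fold higher and 1 was lower, beside 10.3% and 7.73% of all genes. ALCAM, an adhesion molecule of the same superfamily, was the highest at 342 CPM induced against 144 CPM control, and CNTNAP2, a neurexin relative, the lowest at 29.3 CPM induced against 53.5 CPM control.

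Among axonal motors the neuronal kinesin-1 heavy chains were higher in the induced library. KIF5A stood at 37.9 CPM with induction, against 13.7 CPM in the control (2.76-fold, 2.58 to 2.94). KIF5C stood at 144 CPM induced against 64.1 CPM control, a ratio of 2.25 (2.19 to 2.33), and its median thinned cell had 7 counts with induction, against 3 in the control. KIF5B, the widely expressed member of the same family, stood at 323 CPM induced against 254 CPM control, a log2 ratio of 0.35, beside 1.40 for KIF5A and 1.16 for KIF5C. KIF1A, which carries synaptic vesicle precursors, was near level at 198 CPM induced against 186 CPM control. At equal depth KIF5A was found in 71.4% of induced cells (67.4 to 75.1) and 43.2% of control cells (39.7 to 46.8), and without thinning in 79.6% of induced and 60.8% of control cells. Among cells low in phase genes the KIF5A log2 ratio was 1.03.

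The CRMP family, cytoplasmic proteins that bind tubulin and relay semaphorin signals, stayed within 1.5-fold by library totals. CRMP1 stood at 195 CPM with induction, against 148 CPM in the control and DPYSL4 at 35.2 CPM induced against 24.8 CPM control. DPYSL2, the most studied member, stood at 221 CPM induced against 248 CPM control, DPYSL3 at 46.1 CPM induced against 47.4 CPM control and DPYSL5 at 48.0 CPM induced against 46.8 CPM control. Summed over the 5 genes the ratio was 1.06 (1.05 to 1.07). DPYSL4 passed 1.5-fold in 2 alternatives. DPYSL5 had a log2 ratio of 0.53 among cells low in phase genes, against 0.04 in all cells.

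The guidance ligands stood on the other side. SEMA6A, a transmembrane semaphorin that binds plexin A2 and plexin A4, stood at 23.6 CPM with induction, against 65.3 CPM in the control (0.361-fold, 0.343 to 0.380). SEMA6A was detected at equal depth in 59.4% of induced cells (55.2 to 63.5), against 92.0% of control cells (89.9 to 93.9), and without thinning in 73.6% of induced and 94.0% of control cells. The median cell had 1 SEMA6A count with induction, against 3 in the control, and 81.1% of induced cells were below the control median. SEMA3A, a secreted semaphorin that repels many axons, stood at 7.27 CPM induced against 11.4 CPM control, a ratio of 0.636 (0.574 to 0.704). It reached 10 CPM in the control library alone and fell short of 1.5-fold in 10 alternatives. The 18 other semaphorin genes were all under 10 CPM in both libraries and summed to 50.9 CPM with induction, against 45.9 CPM in the control.

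Of the guidance receptors, NRP2 and PLXNA4 were higher in the induced library and ROBO1 was lower. Neuropilins are co-receptors of secreted semaphorins. NRP2 stood at 34.97 CPM with induction, against 6.21 CPM in the control (5.63-fold, 5.15 to 6.16), and NRP1 at 57.4 CPM induced against 38.8 CPM control, a ratio of 1.48 (1.42 to 1.55) that passed 1.5-fold in 7 alternatives. NRP2 was detected at equal depth in 55.2% of induced cells (50.9 to 59.3), against 22.6% of control cells (19.7 to 25.7). Without thinning the shares were 66.1% of induced and 33.3% of control cells. Its thinned counts were unevenly spread over the cells of either library. The 10% of cells with the most NRP2 held 54.8% of these counts with induction, against 60% without. Mean NRP2 counts per thinned cell were 1.94 with induction, against 0.313 in the control, so these shares cannot be compared directly. The highest NRP2 count in a cell was 78 with induction, against 7 in the control. Neuropilins are also made by endothelial cells, and the endothelial list summed to 97.6 CPM with induction, against 109.6 CPM in the control, with EMCN at 11.4 CPM induced against 2.03 CPM control, ESAM at 10.7 CPM induced against 3.22 CPM control and EGFL7 at 53.4 CPM induced against 96.4 CPM control. Thus 2 of the 3 markers that reached the floor were higher and 1 was lower. EMCN and ESAM passed the floor through the induced library alone, a filter that favours a higher induced value, so this count says little. None of the 12 markers was at 0 counts in either library. The part of these markers in the NRP2 value was not tested. Without the 5% of cells highest in that list in each library, the NRP2 log2 ratio of 2.32 was 2.02 and the NRP1 log2 ratio of 0.55 was 0.45.

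Plexins carry the semaphorin signal into the cell. PLXNA4 stood at 61.5 CPM with induction, against 19.7 CPM in the control (3.12-fold, 2.95 to 3.29), and PLXNA2 at 84.9 CPM induced against 61.1 CPM control, a ratio of 1.39 (1.34 to 1.44) that passed 1.5-fold in 5 alternatives. PLXNA4 was found at equal depth in 79.4% of induced cells (75.8 to 82.6) and 44.8% of control cells (41.2 to 48.4), and without thinning in 80.5% of induced and 53.1% of control cells. Of 7 further plexin genes 4 reached the floor, with a median log2 ratio of -0.49. PLXNA3 was the highest at 23.7 CPM induced against 14.6 CPM control, and PLXND1 the lowest at 12.3 CPM induced against 20.1 CPM control. ROBO1, a Slit receptor, stood at 13.7 CPM induced against 22.04 CPM control, a ratio of 0.621 (0.577 to 0.669), and was found in 42.2% of induced and 64.2% of control cells at equal depth (without thinning, 58.6% of induced and 74.9% of control cells). Its log2 ratio of -0.65 was -0.37 under the quality limit. ROBO2 had 219 induced and 243 control counts. The netrin receptor UNC5C stood at 65.3 CPM induced against 84.3 CPM control, and DCC, the receptor that draws axons towards netrin, had 3 induced and 4 control counts, a ratio of 0.890 (0.130 to 5.26).

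The neuronal ELAVL proteins bind and stabilise transcripts of differentiating neurons. ELAVL4 stood at 221 CPM with induction, against 105 CPM in the control (2.11-fold, 2.06 to 2.16). ELAVL2 stood at 29.1 CPM induced against 17.7 CPM control, a ratio of 1.64 (1.54 to 1.75), and ELAVL3 at 182 CPM induced against 146 CPM control. ELAVL1, the member made in most tissues, stood at 60.2 CPM induced against 74.85 CPM control, a log2 ratio of -0.31, beside 1.07 for ELAVL4, 0.68 for ELAVL2 and 0.32 for ELAVL3. The median thinned cell had 12 ELAVL4 counts with induction, against 5 in the control.

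**Figure D3:**
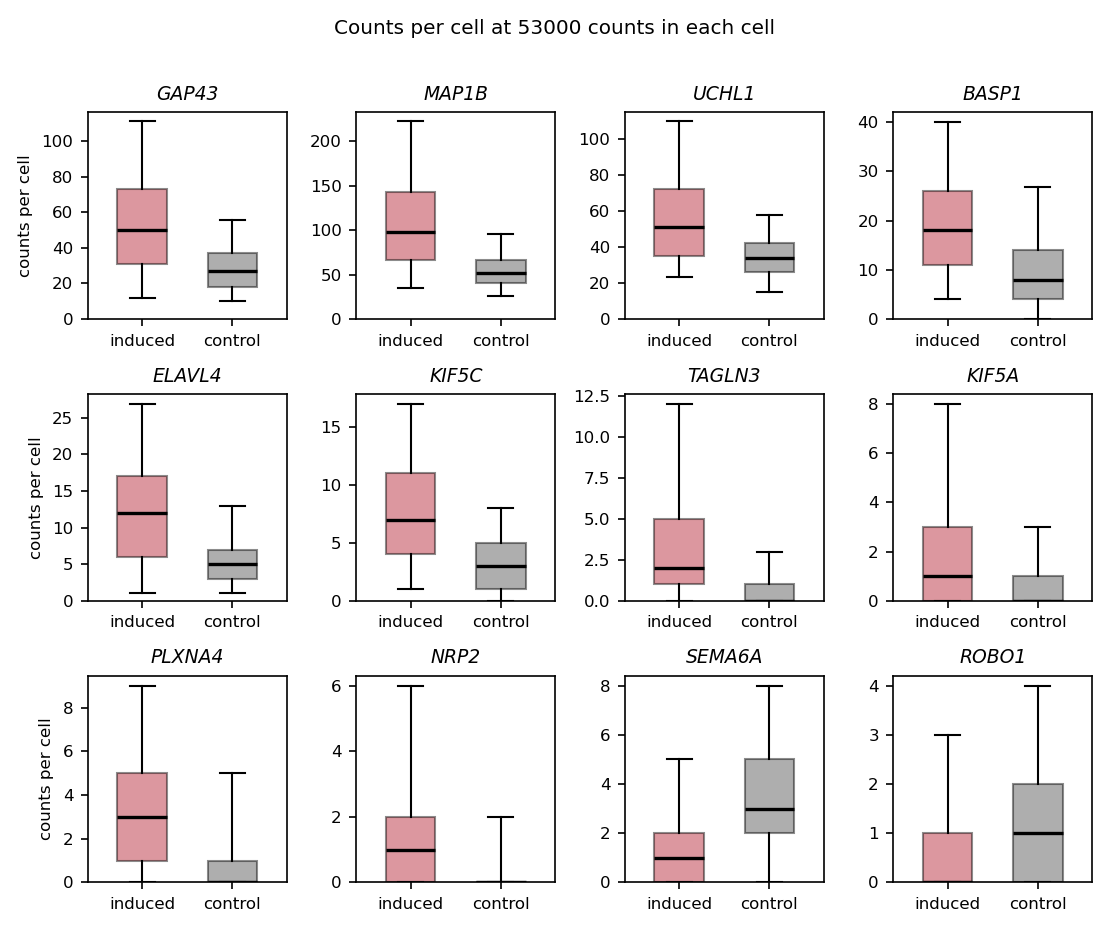
Counts per cell of 12 of the genes with every cell thinned to 53000 counts (562 induced and 766 control cells); boxes span the 25th to 75th percentile, the black line is the median and whiskers reach the 5th and 95th percentile. GAP43, MAP1B, UCHL1, BASP1, ELAVL4 and KIF5C have higher medians in the induced library with overlapping ranges, and SEMA6A and ROBO1 have lower ones.

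The promoters of NRP2, TAGLN3 and PLXNA4 are shown because these 3 had the highest ratios among the genes that reached 10 CPM. Each line gives the 250 bases before the first start that RefSeq lists (GRCh38.p14), 5' to 3' on the strand of the gene, with capitals for matches on either strand to an E-box (CAGCTG) or a GC box (GGGCGG).
NRP2 (chr2:205682251-205682500, plus strand): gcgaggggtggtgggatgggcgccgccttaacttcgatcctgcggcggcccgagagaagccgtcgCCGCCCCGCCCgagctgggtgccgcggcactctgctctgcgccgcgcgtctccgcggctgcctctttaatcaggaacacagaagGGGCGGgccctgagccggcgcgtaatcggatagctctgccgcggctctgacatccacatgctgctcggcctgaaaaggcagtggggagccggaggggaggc
TAGLN3 (chr3:111998672-111998921, plus strand): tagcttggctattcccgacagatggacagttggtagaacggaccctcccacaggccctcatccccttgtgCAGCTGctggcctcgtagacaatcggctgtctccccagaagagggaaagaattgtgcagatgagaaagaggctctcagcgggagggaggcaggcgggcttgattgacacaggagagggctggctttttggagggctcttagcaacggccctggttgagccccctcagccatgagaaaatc
PLXNA4 (chr7:132576471-132576720, minus strand): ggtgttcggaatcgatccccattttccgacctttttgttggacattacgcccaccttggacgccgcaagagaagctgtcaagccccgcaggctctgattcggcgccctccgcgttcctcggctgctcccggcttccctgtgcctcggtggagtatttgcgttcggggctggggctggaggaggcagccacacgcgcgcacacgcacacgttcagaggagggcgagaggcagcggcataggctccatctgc
The NRP2 window held 3 GC boxes, of which 2 lie 5 bases apart and share a base, the TAGLN3 window held 1 E-box, and the PLXNA4 window held neither. Of the 36 genes, 28 had an entry, with 61 starts among them. The others are NCAM1, NRP1, ELAVL3, DPYSL2, MAPT, SEMA3A, SEMA6A and KIF5A. For each motif, both strands were searched. An E-box was found in 16.4% of these 61 windows and in 13.99% of all 35116 windows, and a GC box in 44.3% of the 61 and 42.6% of all. The AP-1 motif TGANTCA was found in 0 of 61 and 6.57% of all windows, the ETS motif CCGGAAG in 0 of 61 and 8.52%, and the TEAD motif GGAATG in 4.92% of the 61 and 11.9% of all. Windows of 1 gene can overlap, so they are not independent. A match says only that these letters occur there.

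Of 155 further pathway genes, 150 had a row and 85 reached the floor, and the others are not analysed here. Of those 85, 23 were at least 1.5-fold higher in the induced library and 3 at least 1.5-fold lower, beside 10.3% higher and 7.73% lower of all 9017 genes. The lists described here cover some of these 85. Microtubule and transport genes, a list that also holds the actin-binding TAGLN, made up 12 of the 23, out of 30 at the floor. Of the 30, 0 were lower, and the median log2 ratio was 0.42. TAGLN was the highest at 12.7 CPM induced against 0.367 CPM control, and KIF1C the lowest at 8.21 CPM induced against 12.4 CPM control. TAGLN passed the floor through the induced library alone and KIF1C through the control library alone, a filter that favours a difference. Of the Slit, netrin and receptor genes 5 reached the floor and 0 passed 1.5-fold, with SRGAP1 highest at 48.5 CPM induced against 33.2 CPM control and SRGAP2 lowest at 15.8 CPM induced against 21.3 CPM control. Of ephrins and their receptors 5 reached the floor and 0 passed, with EFNB2 highest at 10.5 CPM induced against 6.73 CPM control and EFNB1 lowest at 9.46 CPM induced against 14.7 CPM control.

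Most induced cells had a higher sum of the 36 transcripts than a typical control cell, but not all did. Abundant genes such as MAP1B weigh most in this sum. At equal depth the summed genes had a median of 78.2 per 10000 counts in induced cells (5th to 95th percentile 44.0 to 137) and 52.1 in control cells (37.4 to 74.4). In the induced library 86.7% of 562 cells (83.6 to 89.4) lay above the control median and 56.4% (52.2 to 60.6) above the control 95th percentile. Without MARCKS, MAP1B and TAGLN3 in the sum, these shares were 85.9% and 53.4%. The spread over induced cells was wider at the upper end. By HRAS count, the 77 induced cells with 0 to 3 thinned HRAS counts had 7399.9 CPM, the 296 with 4 to 9 had 8271 CPM and the 189 with 10 or more reached 8577 CPM. The matching 193, 492 and 81 control cells had 5382, 5356 and 5141 CPM.

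Inside the induced library the level of many of these genes went with how few cell cycle transcripts a cell held. Cells were ordered by the sum of 94 S and G2/M phase genes and cut into quartiles within each library. GAP43 stood at 1411, 1029.5, 904 and 763 CPM from the lowest to the highest quartile of induced cells, against 577, 547, 534 and 548 CPM in the quartiles of control cells. MAP1B stood at 2752, 2193, 1782 and 1506 CPM in induced and at 1279, 985, 951 and 1016 CPM in control cells. KIF5A had 65.8, 46.6, 35.3 and 20.5 CPM in induced cells and 20.6, 12.5, 10.97 and 8.30 CPM in control cells. GAP43 was thus ordered by phase genes in the induced library and nearly flat in the control library, while KIF5A was ordered in both. Of the 33 genes, 12 were at least 1.5-fold lower in the top than in the bottom quartile of induced cells and 4 at least 1.5-fold higher (DPYSL5, PLXNA2, SEMA3A and SEMA6A). In control cells 5 were lower and 2 higher by that size. Of 8927 genes outside the phase lists that reached the floor, 14.3% were lower and 19.5% higher by that size in induced cells, and 5.86% lower and 12% higher in control cells. Pooled bins leave out the spread between cells, and whether the 2 libraries differ in these orders was not tested. Restricting both libraries to cells low in phase genes left 12 of 33 genes at least 1.5-fold higher and 3 lower, beside 12.5% and 6.98% of 8886 genes. This was an upper limit only (433 induced and 239 control cells), so the kept cells were not matched in phase genes. Over thinned cells, the 25th percentile of summed phase genes was 1811 CPM in induced cells, under the control 5th percentile of 2302 CPM.

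Induced cells were also ordered by a list of mesenchymal surface and cytoskeletal genes, none of them among the 36. Over these quartiles some of the 36 genes rose, some fell and others did neither by 1.5-fold. The list itself summed to 13524 CPM with induction, against 4839 CPM in the control. GAP43 stood at 689.8, 983, 1199.6 and 1256 CPM from the lowest to the highest quartile of induced cells, against 603, 553, 559 and 489.9 CPM in the quartiles of control cells. NRP2 stood at 18.7, 34.5, 43.1 and 50.3 CPM by quartile of induced cells, against 5.45, 5.50, 6.22 and 6.49 CPM in control cells. SEMA6A ran the other way in both libraries, with 42.4, 30.1, 17.3 and 15.1 CPM in induced and 78.3, 71.8, 62.7 and 51.5 CPM in control cells. DPYSL2 had 278, 244, 225 and 200 CPM in induced cells and 268, 242, 238 and 232 CPM in control cells. In the lowest quartile of induced cells GAP43, at 689.8 CPM, was above the 489.9 to 603 CPM of the control quartiles. NRP2 there was also above, and SEMA6A below, all of its control quartiles. Quartiles were cut within each library, so the lowest induced quartile was not matched to control cells in mesenchymal genes. The 25th percentile of the summed list was 7415 CPM in induced cells, above the 75th percentile of 5693 CPM in control cells. Between the bottom and the top quartile of induced cells, 10 of the 33 genes were higher in the top by at least 1.5-fold. These were DPYSL3, GAP43, KIF5A, MAP1A, MAP1B, NRP1, NRP2, PLXNA4, TAGLN3 and UCHL1. By the same size 4 were lower (DCX, DPYSL5, PLXNA2 and SEMA6A). In control cells 4 were higher (DPYSL3, KIF5A, L1CAM and PLXNA4) and 3 lower (DPYSL5, SEMA3A and SEMA6A). Of 9000 genes outside the mesenchymal list that reached the floor, 15.8% were higher and 21.9% lower in induced cells, and 5.78% higher and 8.06% lower in control cells.

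**Figure D4:**
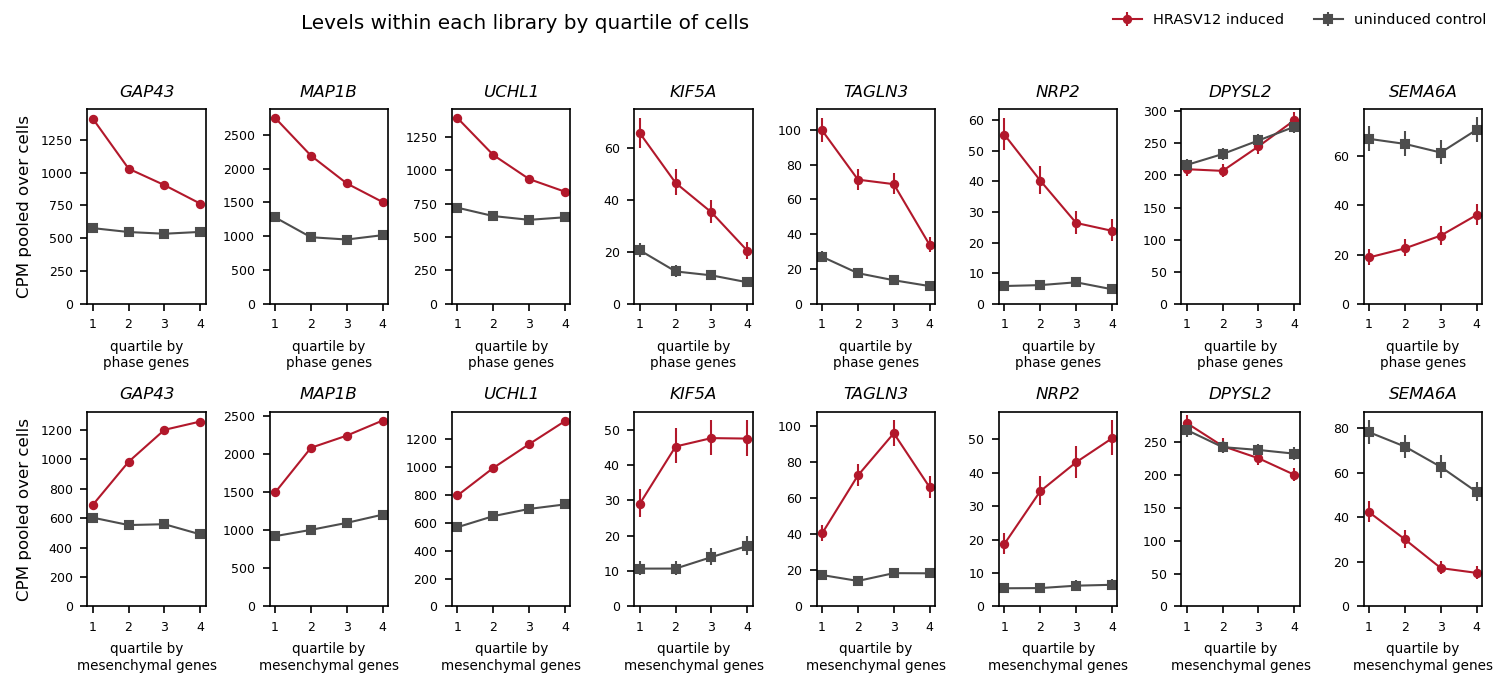
Levels of 8 genes in CPM pooled over cells (vertical axes from 0) by quartile of cells within each library, ordered by summed phase genes (upper row) or mesenchymal genes (lower row), with circles for HRASV12 induced and squares for uninduced control cells and bars for 95% counting intervals. GAP43 falls by phase quartile and climbs by mesenchymal quartile in induced cells and lies between 489.9 and 603 CPM in control cells, and SEMA6A does the opposite in induced cells.

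Pairs of the genes had higher correlations over induced than over control cells. Among 14 of them with a median of at least 5 thinned counts in both libraries, the 91 pairs had a median Spearman correlation of 0.31 over induced and 0.13 over control cells, and 48 induced pairs (52.7%) and 1 control pair (1.10%) lay above 0.3. Over all pairs of the 1477 genes with such medians, 7.43% lay above 0.3 in induced and 2.28% in control cells, and the median was 0.02 in both. GAP43 and MAP1B had a correlation of 0.68 in 562 induced and 0.14 in 766 control cells, and MAP1B and ELAVL4 had 0.63 in induced and 0.27 in control cells. UCHL1 and DPYSL2 had -0.18 in induced and -0.23 in control cells. These values are descriptions, since cells of a library share 1 culture and 1 depth. The median GAP43 and MAP1B counts were lower in control cells, and the part of count size in the difference in correlation was not tested.

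**Figure D5:**
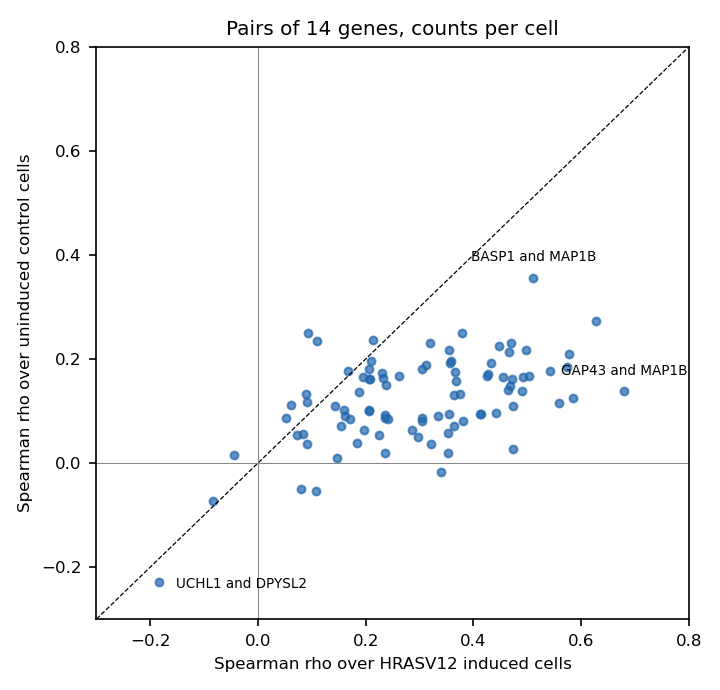
Spearman correlation of counts per cell for the 91 pairs of 14 genes, over HRASV12 induced cells (horizontal) and uninduced control cells (vertical); the dashed line marks equal values. Most points lie below the line, GAP43 and MAP1B the farthest right at 0.68.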

How the data were processed

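Droplet libraries (10x Genomics, 3' end counting) were made from 1 culture with and 1 without doxycycline, per the labels. Kallisto and bustools are named in the submitters' processing notes, but the sources used here give neither versions nor a genome build. In the deposited table, values are whole-number counts for 36027 genes in 1622 cells. Library, total counts, detected genes and the percent of mitochondrial counts per cell were taken from the authors' deposited annotation of cells, which marks all cells as singlets. Column sums differed from the annotated totals by at most 192 counts. The sources used here do not say how cells were filtered or whether counting used strand, so reads of antisense genes (BASP1-AS1, SEMA6A-AS1 and others) may overlap those of their partners.

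Counts were summed per library and scaled to CPM by its total. Log2 ratios are induced over control with 1 CPM added, which understates differences of low genes. Levels have exact Poisson, ratios exact conditional and shares Clopper-Pearson intervals. Promoter matches came from the RefSeq table. Tools were numpy 2.4.6, scipy 1.17.1, pandas 2.3.3 and matplotlib 3.10.9. For alternative scalings, edgeR 4.0.16 gave TMM factors and DESeq2 1.42.0 size factors, with no test. The calculation was tested on simulated counts. Genes, gene lists, bins and the quality limit were chosen with earlier results of these data known. All 36 genes are named, with the highest and lowest of each further list that is described, and some genes are not reported here. KIF5B, ELAVL1, TH, INSM1 and the endothelial and fibroblast markers were named after their values were seen. Alternatives were other scalings, averaging CPM over cells, leaving out cells by depth, quality, phase or endothelial genes, thinning, pseudocounts of 0.1 and 5 CPM and other floors.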

Additional observations from a re-analysis of the deposited data

How the results depend on the processing

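The count of genes at least 1.5-fold higher ran from 8 (of 24 genes at 50 CPM) to 16 (DESeq2 size factors) over all alternatives, around 11, and the median log2 ratio from 0.31 to 0.56 around 0.40. The count at least 1.5-fold lower, 3 by library totals, was 1 with TMM factors, DESeq2 size factors, the mean of per-cell CPM, without the 5% of cells with the most counts, under the quality limit, with thinned cells, with a pseudocount of 5 CPM, at 50 CPM, and without cells with an ANXA1 count. In each of these the remaining gene was SEMA6A. Under these alternatives 4.12% to 6.76% of all genes were lower by that size. The log2 ratio of the summed genes, 0.57 by library totals, was 0.69 with TMM factors, 0.73 with DESeq2 size factors, 0.48 without ribosomal protein and mitochondrial genes in the totals, 0.59 with the mean of per-cell CPM, 0.62 without the 5% of cells with the most counts, 0.65 under the quality limit, 0.55 among cells low in phase genes, 0.59 without the 5% of cells highest in endothelial genes, 0.63 with thinned cells and 0.64 without cells with an ANXA1 count. The cause of these shifts was not tested. The share of induced cells above the control 95th percentile was 50.6% when cells were thinned to 20000 counts, against 56.4%. Leaving out cells with an ANXA1 count and the floor in both libraries were chosen after seeing the data. None of the genes called by library totals changed sign under any alternative. No paired analysis was possible because each group has 1 library. With 1 library a group, no replicate could be left out, and the counting intervals do not cover variation between cultures.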
